A study of Mus musculus with 12 samples.

Results

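The transforming growth factor beta (TGF-beta) system was followed through 10 genes, namely its 3 ligands Tgfb1, Tgfb2 and Tgfb3, its 3 receptors Tgfbr1, Tgfbr2 and Tgfbr3, and the 4 latent TGF-beta binding proteins Ltbp1, Ltbp2, Ltbp3 and Ltbp4. They were chosen by gene symbol, through the accession that the array annotation gives for each probe. All 10 were present on the array with 15 probes and were tested among 19514 genes. The cells were mouse embryonic fibroblasts (MEFs), a primary culture grown out of embryos taken at day 12.5 that holds whichever cell types attach and divide, and their RNA was hybridised to 12 Agilent arrays with a single dye. The 4 groups of 3 arrays were Itpr2 knock-out (KO) cells at late passage, wild-type (WT) cells at late passage, KO cells at early passage and WT cells at early passage. Late cells had been cultured for 5 passages and early cells for 3, and no group received any other treatment. Itpr2 encodes a calcium channel of the endoplasmic reticulum, and the design text states that MEFs were derived from 3 independent mice of each genotype. Allele and strain were not stated in the sources used here.

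TGF-beta is made as a precursor that is cut into a growth factor and a propeptide which stay bound to each other, so that the secreted protein is latent. Latent TGF-beta binding proteins attach to the propeptide and anchor the complex in the extracellular matrix, where integrins, proteases or thrombospondin can set the growth factor free. The free ligand brings together the type II receptor and the type I receptor, which phosphorylates Smad2 and Smad3. In fibroblasts this pathway is best known for raising the synthesis of collagen and other matrix proteins.

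Every level below is a log2 intensity relative to the 75th percentile of its own array, so that 0 is the level of that percentile and 1 unit is a factor of 2. In such bulk RNA fewer cells of a type and less RNA per cell cannot be told apart. A level can be compared between arrays for 1 gene, but not between genes, because probes differ in how strongly they bind. All 180 values of the 15 probes were well above background. The 75th percentile of intensity was 565 to 904 over the arrays, 59.3% to 67.6% of probes were well above background, and 0 were saturated. Arrays of a group correlated at r = 0.985 to 0.997 across the 19514 tested genes. All 16 fibroblast markers were above background on every array. The Itpr2 probe read 1.75, 1.83 and 1.72 in KO late cells and 1.53, 1.74 and 1.56 in WT late cells. It read 1.13, 1.36 and 1.58 in KO early cells and 1.23, 0.97 and 0.67 in WT early cells. It was not lower in KO cells at either passage, and the place of the probe relative to the deleted part was not stated there, so the cells are called KO-labelled throughout. Xist, which is transcribed from an inactive X, was above background on KO-labelled late arrays 1 and 2, WT late array 1 and WT early array 1. It was not above background on any KO-labelled early array. Arrays of the other groups thus differed in it. The KO-labelled passages also differed in it on arrays 1 and 2, so passage and Xist are partly mixed there. Replicate numbers matched the 3 slides, and each group sat at the same position on every slide, so group and position on the slide cannot be told apart.

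Among the 10 genes, Tgfb3 and Ltbp3 carried the differences that passed the test. At late passage Tgfb3 was lower and Ltbp3 higher in KO-labelled cells than in WT cells. Tgfb3 was also higher in late than in early WT cells. No gene of the 10 passed between the genotypes at early passage.

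**Figure D1:**
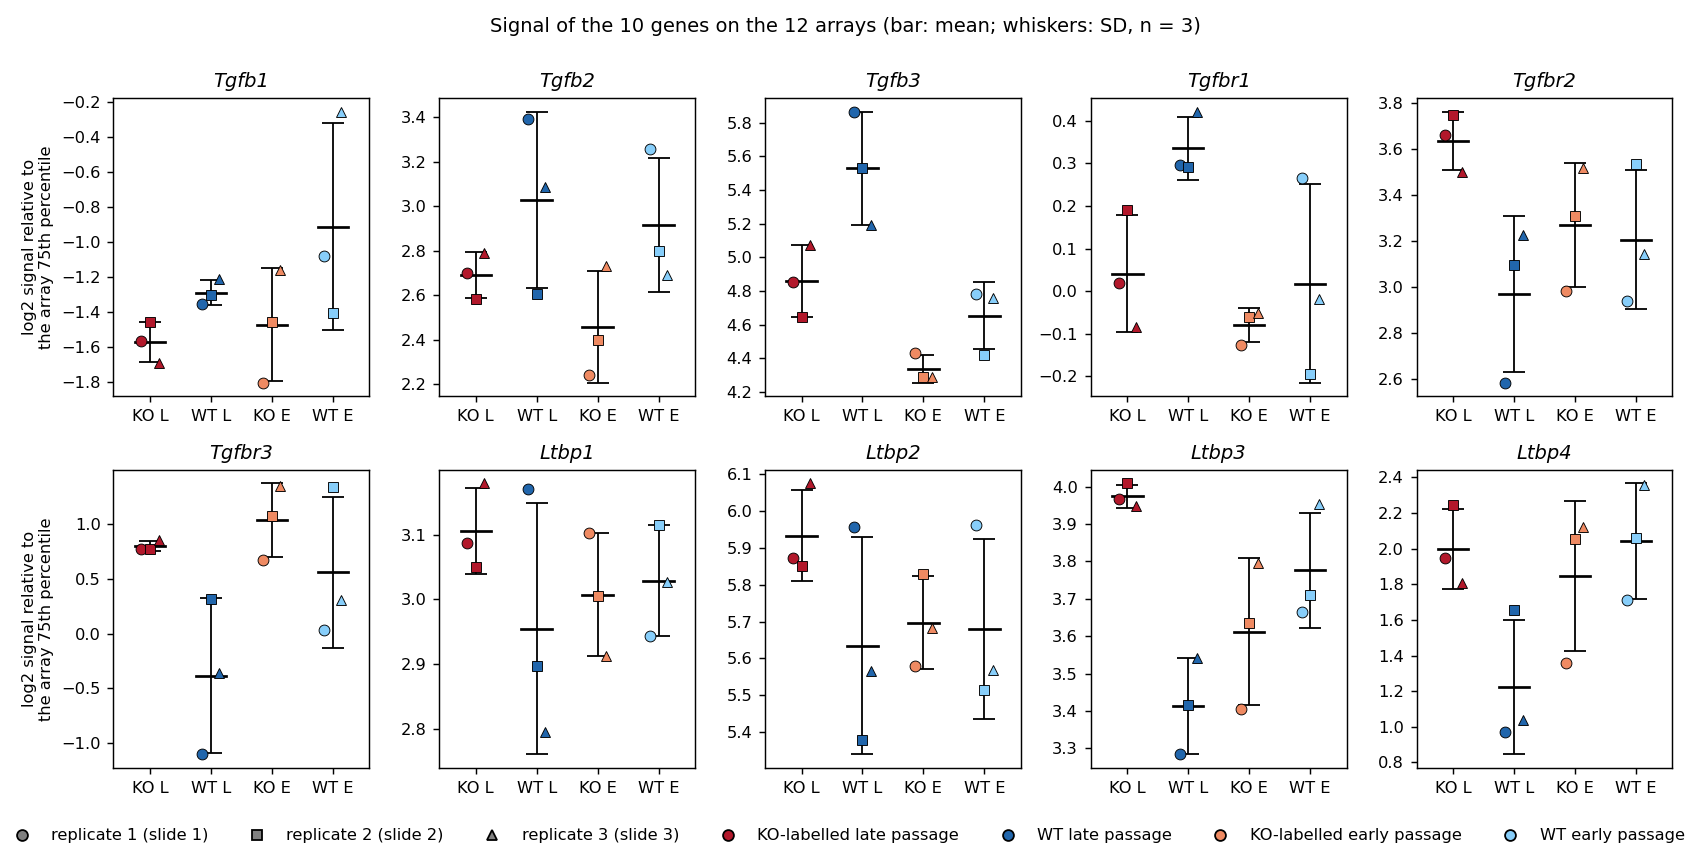
Log2 signal of the 10 genes relative to the 75th percentile of the array (vertical axis, own scale per gene) on the 12 arrays; points are arrays, with the shape giving the slide, horizontal bars the mean and whiskers the SD of 3 arrays. Tgfb3 stands at 5.19 to 5.86 on the WT late arrays, above all 9 others, and Ltbp3 stands at 3.95 to 4.01 on the KO-labelled late arrays, against 3.28 to 3.54 in WT late cells.

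The 3 ligands bind the same receptors, and Tgfb3 gave the clearest pattern. Tgfb3 read 4.85, 4.65 and 5.07 in KO-labelled late cells and 5.86, 5.53 and 5.19 in WT late cells. It read 4.43, 4.29 and 4.29 in KO-labelled early cells and 4.78, 4.42 and 4.76 in WT early cells. The late WT arrays were the 3 highest of all 12, and the KO-labelled late arrays lay below them without overlap. At late passage Tgfb3 was lower by 0.67 ± 0.18 in KO-labelled than in WT cells (log2, standard error of the fit, SE), a 1.59-fold lower signal (limma adjusted p = 0.046). Within the slides the difference was -1.01, -0.88 and -0.11, so it was small on slide 3. That it had 1 sign on all 3 follows from the lack of overlap. With 1 of the 12 arrays left out at a time the difference was -0.84 to -0.50, and its sign could not change for the same reason. It passed in only 4 of the 12 such fits (adjusted p = 0.034 to 0.15), those without WT late array 3 or 1 of the WT early arrays. Without both KO-labelled late arrays that carry Xist it was -0.45 (adjusted p = 0.59), and with Xist as a covariate it was -0.71 (adjusted p = 0.057). In WT cells Tgfb3 rose by 0.87 ± 0.18 at late against early passage, or 1.83-fold (adjusted p = 0.015), and the arrays of both passages did not overlap. Within the slides that rise was 1.08, 1.11 and 0.43, and it passed without any 1 of the 12 arrays (0.71 to 1.04). When the 6 WT arrays were fitted alone it did not pass (adjusted p = 0.082). In KO-labelled cells the difference of late from early passage was 0.52 ± 0.18 (adjusted p = 0.063). Its arrays did not overlap either, but it did not pass the test. With the 6 KO-labelled arrays fitted alone it did (adjusted p = 0.028), as it did with quantile normalization (0.69, adjusted p = 0.017) and in the fits without WT late array 1 or 3 (adjusted p = 0.038 and 0.037). Of 26 alternatives it passed in 7, among them 2 of the 12 fits without 1 array. With Xist as a covariate it was 0.45 (adjusted p = 0.17), and with no filter on dim probes its adjusted p was 0.13. The passage difference of KO-labelled cells minus that of WT cells was -0.35 ± 0.25 (adjusted p = 0.55, 95% interval -0.90 to 0.20), so the passage responses of Tgfb3 were not shown to differ between the genotypes.

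Tgfb1, the founding ligand of the family, had a dim signal. It read -1.56, -1.46 and -1.69 in KO-labelled late cells and -1.35, -1.30 and -1.21 in WT late cells. It read -1.80, -1.46 and -1.16 in KO-labelled early cells and -1.08, -1.40 and -0.26 in WT early cells. The late KO-labelled arrays lay just below the late WT arrays, while the early groups overlapped and WT early array 3 stood highest of all. The difference of KO-labelled from WT cells was -0.28 ± 0.26 at late passage (adjusted p = 0.54) and -0.56 ± 0.26 at early passage (adjusted p = 0.74), and neither passed. Tgfb2, whose binding to the type II receptor depends on betaglycan, averaged 2.69 ± 0.10 in KO-labelled late cells and 3.03 ± 0.40 in WT late cells (SD, n = 3 each). It averaged 2.46 ± 0.25 in KO-labelled early cells and 2.92 ± 0.30 in WT early cells. The late groups overlapped for Tgfb2, as did the early groups, and its differences between genotypes were -0.34 ± 0.21 and -0.46 ± 0.21 (adjusted p = 0.37 and 0.74). All 3 ligands were lower in KO-labelled cells in the mean at both passages, but of these differences only that of Tgfb3 at late passage passed.

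Of the receptors, none passed the test in any comparison. Tgfbr2, the type II receptor that binds the ligand first, read 3.66, 3.75 and 3.50 in KO-labelled late cells and 2.59, 3.10 and 3.23 in WT late cells. It read 2.98, 3.31 and 3.52 in KO-labelled early cells and 2.94, 3.54 and 3.14 in WT early cells. Only the late groups did not overlap, with WT late array 1 the lowest of all 12. The late difference was 0.67 ± 0.21 (adjusted p = 0.075), and within the slides it was 1.07, 0.65 and 0.27. With the slide as a block, since replicate numbers were shared between the groups, the adjusted p was 0.047. A second Tgfbr2 probe, which was dimmer, gave 0.49 ± 0.27 (adjusted p over probes 0.30), and its late groups overlapped. With the mean of all probes of the gene the late difference was 0.58 (adjusted p = 0.15).

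Tgfbr3, also called betaglycan, is a co-receptor that presents ligand to the signalling receptors. It read 0.78, 0.77 and 0.86 in KO-labelled late cells and -1.11, 0.31 and -0.36 in WT late cells. It read 0.68, 1.08 and 1.35 in KO-labelled early cells and 0.03, 1.34 and 0.31 in WT early cells. The KO-labelled late arrays were nearly equal, while the WT late arrays spread over more than 1 unit and all lay lower. The late difference was 1.19 ± 0.38, a 2.28-fold higher signal in KO-labelled cells, and the largest of the 10 genes in this comparison, but it did not pass (adjusted p = 0.085, and 0.047 with the slide as a block). Without WT late array 2 it was 1.54 and passed (adjusted p = 0.046), without WT late array 1 it was 0.83 (adjusted p = 0.22), with Xist as a covariate it was 1.41 (adjusted p = 0.045), and within the slides it was 1.89, 0.46 and 1.22. In WT cells the late minus early difference of Tgfbr3 was -0.95 ± 0.38 (adjusted p = 0.14), with -1.14, -1.03 and -0.67 within the slides. It was -0.59 without WT late array 1 and -0.56 without WT early array 2.

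Tgfbr1 is the type I receptor, the kinase that phosphorylates Smad2 and Smad3. It read 0.02, 0.19 and -0.08 in KO-labelled late cells and 0.30, 0.29 and 0.42 in WT late cells. The late groups did not overlap, KO-labelled cells being lower by a small margin. The late difference was -0.29 ± 0.12 (adjusted p = 0.16) and did not pass. In early cells it averaged -0.08 ± 0.04 in KO-labelled cells and 0.02 ± 0.23 in WT cells (SD, n = 3 each), a difference of -0.10 ± 0.12 (adjusted p = 0.83). A second Tgfbr1 probe, which was dimmer, gave the opposite sign at early passage with 0.66 ± 0.26 (adjusted p over probes 0.70), so the direction there depends on the probe. At late passage that probe gave -0.14 ± 0.26 (adjusted p over probes 0.80), and its late groups overlapped.

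Ltbp3 is a latent TGF-beta binding protein of the matrix that binds the latent complex. Ltbp3 read 3.97, 4.01 and 3.95 in KO-labelled late cells and 3.28, 3.41 and 3.54 in WT late cells. It read 3.40, 3.64 and 3.80 in KO-labelled early cells and 3.66, 3.71 and 3.95 in WT early cells. The 3 late KO-labelled arrays were nearly equal and lay above every late WT array, while the early groups overlapped. Ltbp3 was higher by 0.56 ± 0.12, or 1.48-fold, in late KO-labelled than in late WT cells (adjusted p = 0.023). Within the slides the difference was 0.68, 0.59 and 0.41, and a second Ltbp3 probe gave 0.62 ± 0.13 (adjusted p over probes 0.023). Without any 1 of the KO-labelled late arrays, or without WT late array 1 or 2, it did not pass (adjusted p = 0.051 to 0.086), and without the others it did. Without both KO-labelled late arrays that carry Xist it was 0.54 (adjusted p = 0.34), and with Xist as a covariate 0.60 (adjusted p = 0.029). Passage differences of Ltbp3 had opposite signs in the genotypes, with 0.36 ± 0.12 in KO-labelled cells (adjusted p = 0.060) and -0.36 ± 0.12 in WT cells (adjusted p = 0.081). Both kept their sign on every slide, which the lack of overlap between the passages fixes. Neither passed, although both did with the slide as a block (adjusted p = 0.031 and 0.045). The KO-labelled passages differed in Xist on arrays 1 and 2, so a slide need not pair cells of the same origin there. In the 12 fits without 1 array the KO-labelled difference passed in 2 (adjusted p = 0.031 to 0.20). The WT difference passed in 0 of them (adjusted p = 0.054 to 0.21). With Xist as a covariate the KO-labelled difference was 0.43 (adjusted p = 0.063). The difference between these passage responses was 0.72 ± 0.17 and did not pass (adjusted p = 0.14).

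Ltbp4, another binder of latent TGF-beta with a role in elastic fibres, varied in the same sense with more scatter. It read 1.95, 2.24 and 1.81 in KO-labelled late cells and 0.97, 1.66 and 1.04 in WT late cells. It read 1.36, 2.05 and 2.12 in KO-labelled early cells and 1.71, 2.06 and 2.36 in WT early cells. The WT late arrays lay below the late KO-labelled and the early WT arrays without overlap. The late difference of KO-labelled from WT cells was 0.78 ± 0.26 (adjusted p = 0.091), and the late minus early difference in WT cells was -0.82 ± 0.26 (adjusted p = 0.070). The passage difference in WT cells passed with the slide as a block (adjusted p = 0.034) and for a second Ltbp4 probe (-0.78 ± 0.21, adjusted p over probes 0.043). On the probe that stood for Ltbp4 it passed with a variance prior that follows the mean (adjusted p = 0.048). It did not pass with the WT arrays fitted alone (adjusted p = 0.15) or with array weights (adjusted p = 0.14). Of the 12 fits without 1 array it passed in 3 (adjusted p = 0.043 to 0.18). In KO-labelled cells the passage difference was 0.16 ± 0.26 (adjusted p = 0.71).

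Ltbp1 and Ltbp2 varied least among the binders. Ltbp1, the founding member of the family and a main carrier of latent TGF-beta in fibroblast matrix, averaged 3.11 ± 0.07 in KO-labelled late cells and 2.95 ± 0.19 in WT late cells (SD, n = 3 each). Its early means were 3.01 ± 0.09 in KO-labelled cells and 3.03 ± 0.09 in WT cells. The groups overlapped at both passages, and the late difference of 0.15 had a 95% interval of -0.09 to 0.39 (adjusted p = 0.43). Ltbp2, a microfibril protein that, unlike its relatives, does not bind latent TGF-beta, averaged 5.93 ± 0.12 in KO-labelled late cells and 5.63 ± 0.30 in WT late cells. Its early means were 5.70 ± 0.13 in KO-labelled cells and 5.68 ± 0.24 in WT cells. The late groups overlapped for Ltbp2, and the difference of 0.30 ± 0.16 did not pass (adjusted p = 0.30). Its late KO-labelled arrays lay above its early ones without overlap, by 0.24 ± 0.16 (adjusted p = 0.34).

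**Figure D2:**
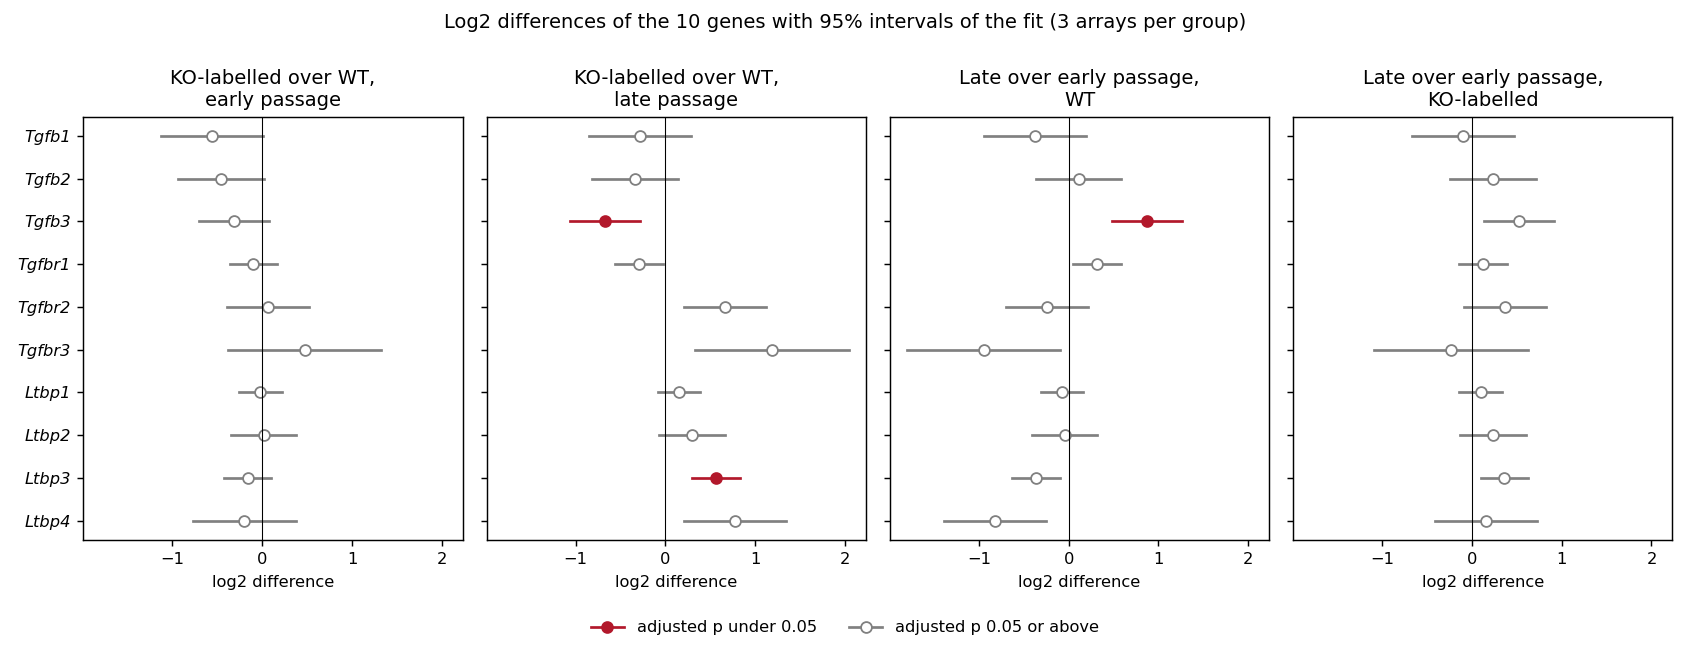
Log2 differences of the 10 genes (horizontal axis) in 4 comparisons, with 95% intervals of the fit on 3 arrays per group; filled points passed at an adjusted p under 0.05. Filled points are Tgfb3 and Ltbp3 in late KO-labelled against WT cells, and Tgfb3 in late against early WT cells.

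Counted together, 2 of the 10 genes passed in late KO-labelled against late WT cells, where 7.81% of all 19514 genes did. Ltbp3 was the 1 higher, as were 3.49% of all genes, and Tgfb3 the 1 lower, as were 4.32%. Between the passages of WT cells 1 passed, Tgfb3, which was higher, against 10.6% of all genes in either direction and 6.15% higher. Between the passages of KO-labelled cells 0 passed in limma, against 19.1% of all genes. In KO-labelled against WT cells at early passage 0 passed, against 0.0359% of all genes. For the difference between the passage responses 0 passed, against 0.0922% of all genes. An unadjusted p under 0.05 was reached by 6 of the 10 genes in late KO-labelled against late WT cells, where 24.9% of all genes reached it, and by 0 in early KO-labelled against early WT cells, where 6.1% did. Between the passages 5 of the 10 reached it in WT cells, where 28.5% of all genes did, and 2 in KO-labelled cells, where 34% did. For the difference of the passage responses 2 reached it, where 13.9% of all genes did.

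The arrays of the compared groups did not overlap for 7 of the 10 genes in late KO-labelled against late WT cells, where 39.4% of all genes did not overlap. The 4 genes Tgfbr2, Tgfbr3, Ltbp3 and Ltbp4 lay higher in KO-labelled cells, as did 19.2% of all genes. The 3 genes Tgfb1, Tgfb3 and Tgfbr1 lay lower, as did 20.2%. Each gene is counted by the probe that stood for it, and on the second probes of Tgfbr1 and Tgfbr2 the late groups overlapped. Between the WT passages 4 did not overlap, against 27.8% of all genes, with Tgfb3 and Tgfbr1 higher and Ltbp3 and Ltbp4 lower. On the second Tgfbr1 probe the WT passages overlapped. Between the KO-labelled passages 3 did not overlap (Tgfb3, Ltbp2 and Ltbp3), against 52% of all genes, and all 3 were higher at late passage, against 22.1%. At early passage 0 of the 10 separated KO-labelled from WT cells, against 9.64% of all genes. The median difference of the 10 genes in late KO-labelled against late WT cells was 0.22, against -0.0063 over all genes. It was -0.16 in late against early WT cells and 0.19 in late against early KO-labelled cells, against -0.0077 and -0.05 over all genes.

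**Figure D3:**
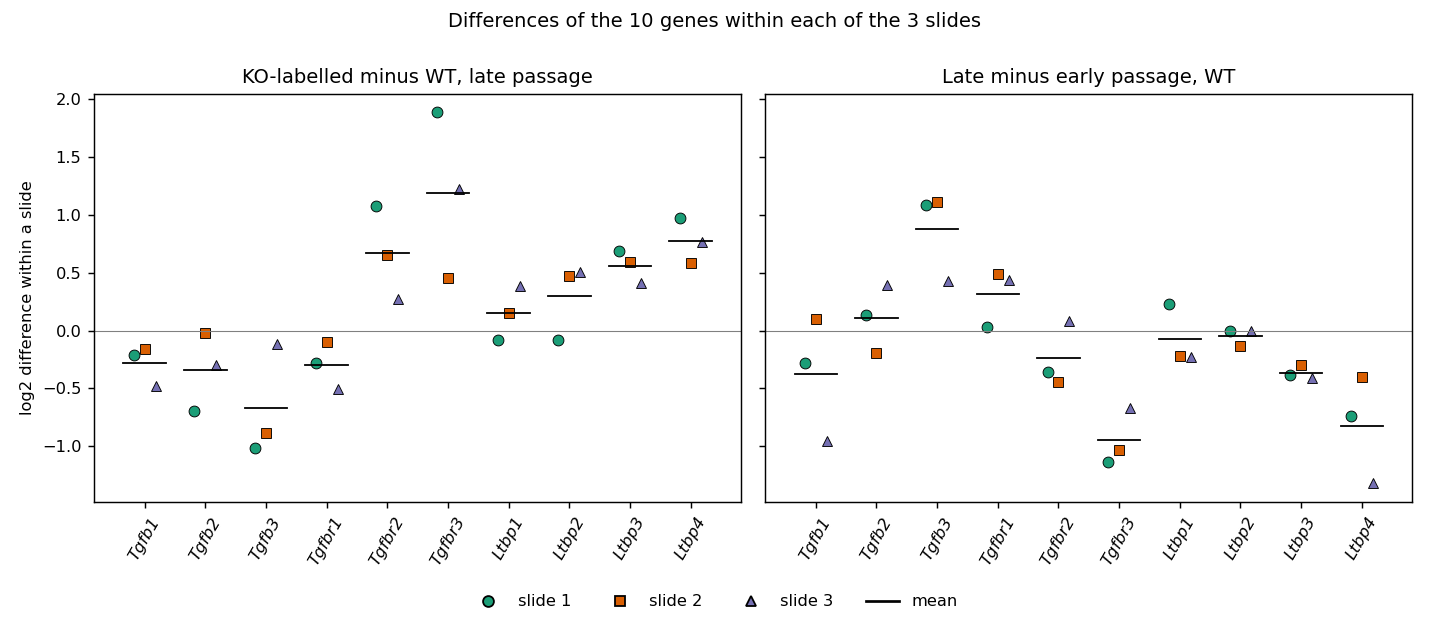
Log2 differences of the 10 genes within each of the 3 slides (points) with their mean (bar), for late KO-labelled minus late WT cells and for late minus early WT cells. In the left panel 8 of the 10 genes keep 1 sign on all 3 slides, Ltbp1 and Ltbp2 being the exceptions. For 7 of the 8, all but Tgfb2, the late groups do not overlap, which by itself fixes the sign on every slide. The share of all genes that keep 1 sign was not counted.

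Across the 12 arrays some members varied together and some in opposite directions, given here as a description over arrays that share slides and groups. The pairs named next have the r of largest size among the 45, and none of them holds Tgfb1, Tgfb2, Ltbp1 or Ltbp2. Tgfb3 and Tgfbr3 correlated at r = -0.82 (Spearman's rho = -0.74), and Tgfbr1 and Tgfbr3 at r = -0.78. Tgfbr2 and Ltbp3 correlated at r = 0.80, Ltbp3 and Ltbp4 at r = 0.79, and Tgfbr2 and Tgfbr3 at r = 0.77. Of the 45 pairs of members, 25 correlated above 0 and 20 below. The genes whose 12 values were most like those of Tgfb3 were Gjb2 (r = 0.99), a gap junction protein, Plau (r = 0.98), the urokinase plasminogen activator, and Ccl17 (r = 0.97), a chemokine. Those most like Ltbp3 were Nek6 (r = 0.96), Rbm26 (r = 0.96) and Tsc22d1 (r = 0.96). Among those most like Ltbp4 were Svep1 (r = 0.95) and Col6a2 (r = 0.94), and those most like Tgfbr3 were Naprt (r = 0.98), Angpt1 (r = 0.97) and Smarca2 (r = 0.96). The best matches of the other members were Csad for Tgfbr2 (r = 0.96), Pdgfb for Tgfbr1 (r = 0.96), Ppm1g for Tgfb1 (r = 0.98), Stk40 for Tgfb2 (r = 0.87), Rhd for Ltbp2 (r = 0.91) and P4htm for Ltbp1 (r = 0.83).

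Upstream sequence was read for Tgfbr2, Ltbp3 and Ltbp4, because the late difference of these members was positive on every slide and they correlated with each other over the arrays. Each sequence is the 250 bases before the annotated start in the RefSeq table of build GRCm38.p6, on the gene's own strand, 5′ to 3′. Capitals mark the GC box bound by Sp1-like factors (GGGCGG or, on the other strand, CCGCCC) and a Smad half-site with one flanking base (CAGAC or GTCTG). Tgfbr2 is on chr9:116175364-116175613 on the minus strand, Ltbp3 on chr19:5740650-5740899 on the plus strand, and the most upstream of the 3 starts listed for Ltbp4 on chr7:27337613-27337862 on the minus strand.
Tgfbr2: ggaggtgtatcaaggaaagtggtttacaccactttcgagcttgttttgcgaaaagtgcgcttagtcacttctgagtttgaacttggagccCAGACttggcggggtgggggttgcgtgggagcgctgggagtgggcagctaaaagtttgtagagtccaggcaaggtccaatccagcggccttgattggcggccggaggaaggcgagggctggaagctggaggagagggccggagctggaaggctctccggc
Ltbp3: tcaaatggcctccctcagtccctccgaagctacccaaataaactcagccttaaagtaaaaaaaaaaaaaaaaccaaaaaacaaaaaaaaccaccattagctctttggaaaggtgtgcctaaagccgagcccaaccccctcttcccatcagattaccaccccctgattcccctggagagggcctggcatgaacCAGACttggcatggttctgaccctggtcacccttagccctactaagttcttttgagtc
Ltbp4: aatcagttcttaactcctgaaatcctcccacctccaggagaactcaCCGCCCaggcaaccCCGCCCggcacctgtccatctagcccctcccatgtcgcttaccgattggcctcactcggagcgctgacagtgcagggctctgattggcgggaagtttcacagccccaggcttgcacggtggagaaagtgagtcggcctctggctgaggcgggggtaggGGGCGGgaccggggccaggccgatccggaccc
The windows of Tgfbr2 and Ltbp3 held 1 Smad half-site and 0 GC boxes each, and that of Ltbp4 held 3 GC boxes and 0 Smad half-sites. Over all 32851 windows of 250 bases in the table, 32.7% held a GC box and 42.2% a Smad half-site. A match is a run of letters and not a binding site, and the 3 windows shared neither motif. The table listed a window for 8 of the 10 members, Tgfb3 and Tgfbr3 not being among them.

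The wider pathway was followed in 5 lists, whose counts are read against the same percentages of all genes. At early passage 0 of the 74 tested genes of the lists passed between KO-labelled and WT cells in limma, and 4 had an unadjusted p under 0.05, where 6.1% of all genes did. For the difference between the passage responses 0 of the 74 passed, and 21 had an unadjusted p under 0.05, where 13.9% of all genes did. The number at an unadjusted p under 0.05 was 29 of 74 between the late groups, 29 between the WT passages and 25 between the KO-labelled passages, and the shares of all genes are those given above for the 10 members. In late KO-labelled against late WT cells 3 of 9 tested matrix proteins that bind TGF-beta or its complexes passed, all higher. They were Fbn2, a fibrillin of developing microfibrils (1.78 ± 0.25), Aspn, the small proteoglycan asporin (0.92 ± 0.17), and Emilin1, an elastic fibre glycoprotein (0.93 ± 0.18). The median of that list was 0.92, and 8 of its 9 genes had a positive difference. Of 9 co-receptors and related receptors, 2 were higher, Acvr2a (0.98 ± 0.13) and Bmpr1a (0.46 ± 0.10), which receive activins and bone morphogenetic proteins. Another 2 were lower, Acvrl1, a type I receptor best known from endothelium (-0.65 ± 0.15), and Cd109, a surface protein that binds TGF-beta (-0.73 ± 0.19). Of 25 target genes 4 were higher, with Col3a1, a fibrillar collagen, at 0.96 ± 0.17 and Bhlhe40 at 0.69 ± 0.13. The others were Snai1 at 0.69 ± 0.16 and Tgfbi, a TGF-beta induced matrix protein, at 1.14 ± 0.29. The median of the targets was 0.08, and 13 of 25 were positive. Of 18 Smads and their regulators 1 was higher, Smad5, which carries signals of bone morphogenetic proteins (0.37 ± 0.10). Of 13 activators of latent TGF-beta 0 passed. At an unadjusted p under 0.05 in this comparison stood 5 activators, 5 co-receptors, 4 matrix binders, 5 Smads and regulators and 10 targets, where 24.9% of all genes did.

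In late against early WT cells the matrix binders went the other way, with 4 of 9 lower at late passage, namely Fbn2 (-1.65 ± 0.25), Aspn (-0.96 ± 0.17), Fbn1 (-0.92 ± 0.21) and Fmod (-1.81 ± 0.42), and 0 higher. These comparisons share the WT late arrays. Among the Smads and regulators, Tgif1 (0.64 ± 0.10), Smad7, an inhibitor of the receptors (0.66 ± 0.16), and Skil (0.54 ± 0.15) rose, and Ski, a repressor of Smad targets, fell by 0.84 ± 0.23. Among the targets 4 rose, Ccn1 (1.26 ± 0.16), Bhlhe40 (0.70 ± 0.13) and Junb (1.21 ± 0.26) among them, while Col1a2, a chain of type I collagen, fell by 0.46 ± 0.12. Plau, an activator, rose (0.74 ± 0.18) and Mmp14, a membrane metalloproteinase, fell by 0.82 ± 0.21. Acvr2b rose (0.81 ± 0.16), and Acvr2a and Cd109 fell by 0.75 ± 0.13 and 0.86 ± 0.19.

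In late against early KO-labelled cells 8 of 25 targets passed, 6 higher and 2 lower. The smallest adjusted p-values were those of Ccn1 (1.66 ± 0.16), Bhlhe40 (1.24 ± 0.13), Junb (1.90 ± 0.26) and Cdkn2b, an inhibitor of cyclin-dependent kinases, which fell by 1.27 ± 0.18. Of the matrix binders 1 of 9 passed, Emilin1 (0.69 ± 0.18). Of the 9 co-receptors and related receptors 3 rose and 2 fell, among them Cd109 (-1.50 ± 0.19), Acvrl1 (-0.94 ± 0.15), Bmpr1a (0.50 ± 0.10) and Acvr2b (0.76 ± 0.16). Tgif1 and Smad1 rose (0.49 ± 0.10 each), and Lrrc32, which tethers latent TGF-beta to cell surfaces, and Itgav, an integrin chain that activates it, fell by 1.09 ± 0.22 and 0.74 ± 0.21.

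**Figure D4:**
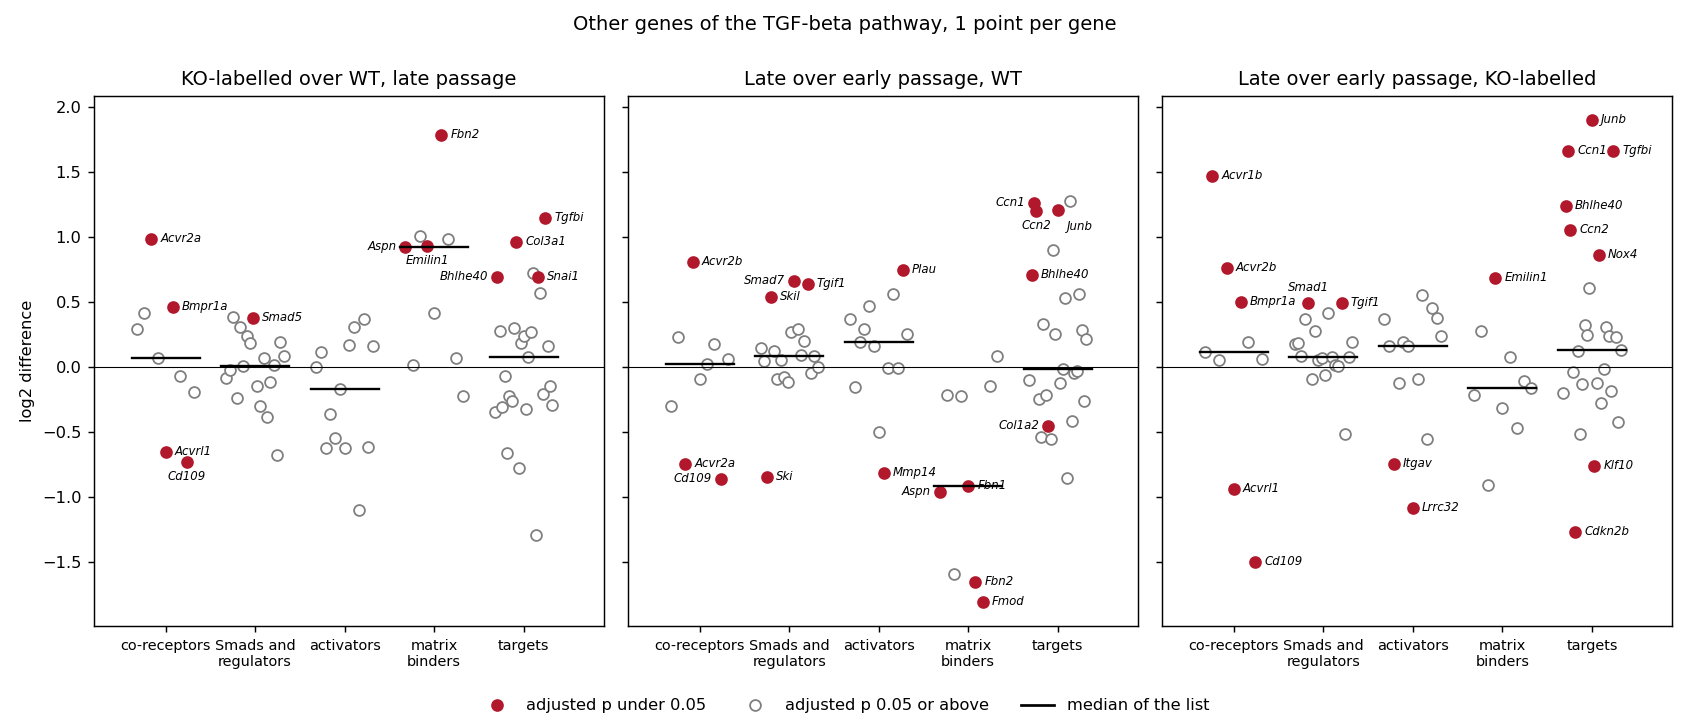
Log2 differences (vertical axis) of the other TGF-beta pathway genes in 5 lists and 3 comparisons, 1 point per gene, with the list median as a bar; filled and named points passed at an adjusted p under 0.05. The median of the matrix binders is 0.92 in late KO-labelled against WT cells and -0.92 in late against early WT cells.

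Markers of some other cell types also differed in these comparisons. The counts of markers that passed are read against the shares of all genes that did. These were 7.81% between the late groups, 10.6% between the WT passages and 19.1% between the KO-labelled passages. The summed level of the macrophage markers, 17 of 18 of them above background, was 48.7 to 95.6 in KO-labelled late cells, in units of the 75th percentile, and 102 to 168 in WT late cells. In early cells it was 67.0 to 89.6 in KO-labelled and 70.2 to 136 in WT cells. Of its 17 tested markers 2 were lower in late KO-labelled than in late WT cells, Lyz2 (-1.32 ± 0.33) and Cd68 (-1.43 ± 0.38). Only 1 of the 17 had a positive difference, and their median was -1.10. Of 12 tested cartilage markers 7 were higher in the same comparison, Sox9 among them (1.40 ± 0.15), and 0 were lower. All 12 had a positive difference, and their median was 1.45. Their summed level was 37.7 to 51.0 in KO-labelled late cells, 30.1 to 35.5 in WT late cells, 34.2 to 48.8 in KO-labelled early cells and 27.5 to 86.8 in WT early cells. The epithelial sum was 0.41 to 0.45 in KO-labelled late cells and 1.41 to 1.80 in WT late cells, with Epcam, Cdh1, Krt8 and Krt5 below the level needed for testing. Of the 4 tested epithelial markers 1 was lower in late KO-labelled cells. Of 7 neural and glial markers 1 was higher and 2 were lower there. Of 7 smooth muscle markers 2 were lower, and of 6 skeletal muscle markers 1 was. Of the 6 endothelial markers only 2 could be tested and 0 of them passed. Of 16 fibroblast markers 3 were higher and 2 lower in late KO-labelled than in late WT cells. Between the WT passages, where Tgfb3 was higher at late passage, 5 of the 16 fibroblast, 4 of the 12 cartilage, 3 of the 6 skeletal muscle and 1 of the 7 smooth muscle markers fell, and 2 of the 7 neural and glial markers rose. Of the 17 macrophage markers 1 rose there, 15 had a positive difference, and their median was 0.85. Between the KO-labelled passages 1 fibroblast, 3 cartilage and 1 neural and glial marker rose, and 4 fibroblast, 2 skeletal muscle, 2 smooth muscle, 2 epithelial and 2 neural and glial markers fell. Of the 17 macrophage markers 0 passed there. Col1a1, Col1a2, Col3a1 and Postn stand in both the fibroblast and the target list, and Acta2, Tagln and Cnn1 in both the smooth muscle and the target list. The part of these markers in the differences of the 10 genes was not tested.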

How the data were processed

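RNA of 12 MEF cultures was measured on Agilent arrays, whose design is annotated on mouse build mm9. Per the file headers, the deposited intensity of each spot is the processed signal of Agilent Feature Extraction 11.5.1.1, background-subtracted and not normalized between arrays. The submitters' processing notes name version 10.7.3.1. The authors' deposited table of centred log2 values (22887 probes, 3175 values missing) served as an alternative. Outlier spots (100 to 212 per array) were left out, repeated spots averaged, and the array's 75th percentile subtracted on the log2 scale. A probe had to be well above background throughout 1 or more of the groups (24475 were, of which 107 were dropped for outlier spots), and the probe with the highest mean stood for its gene. Of 28290 probes with a RefSeq accession, 27969 matched a symbol. limma 3.58.1 in R 4.3.3 fitted the 4 group means to all 12 arrays, with Benjamini-Hochberg adjustment over 19514 genes and a threshold of 0.05. The fit was tested on simulated data. The p-values pool the spread over the 4 groups, whose median SD was 0.084 in KO-labelled late, 0.16 in WT late, 0.14 in KO-labelled early and 0.22 in WT early cells. Precision is limited by having 3 arrays in a group.

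The members and lists were chosen with earlier results of these data known. All 10 members are named. From each of the 5 other pathway lists at most 4 genes per comparison are named, those with the smallest adjusted p, and for each member the genes with the best correlation, up to 3. For Ltbp4, 1 of these is not reported here. Alternatives were quantile normalization, background correction, filters, the slide as a block, separate fits, other rules for probes, array weights, a variance prior that follows the mean, Xist as a covariate, the authors' table and leaving out arrays. Liver samples named in the design text were not used here.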

Additional observations from a re-analysis of the deposited data

How the results depend on the processing

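Of 1290 values of single genes under single alternatives, 1195 kept their sign and their side of the threshold, 23 lost a call and 31 gained one. Most of the 1290 belong to results that were not called and so could not lose a call. Of 26 alternatives each, Tgfb3 passed in 13 and Ltbp3 in 18 between the late groups, and Tgfb3 in 24 between the WT passages. Some alternatives, such as the filters and the block, leave these differences themselves unchanged. Another 41 changed sign without a call, and 0 reversed a called direction. In late KO-labelled against late WT cells, where 2 of the 10 genes passed, the count was 0 with background correction by normexp on the median signals, 0 with no filter on dim probes, 1 with only the groups compared, 5 with array weights and 0 without the 2 KO-labelled late arrays that carry Xist, where the 1 array left is taken to vary like the other groups. In late against early WT cells (1 passed) it was 0 with normexp, 0 with only the groups compared and 2 with a variance prior that follows the mean. In late against early KO-labelled cells (0 passed) it was 1 with quantile normalization, 2 with normexp followed by quantile normalization, 1 with only the groups compared, 1 with the mean of all probes, 4 with array weights and 2 with a variance prior that follows the mean. Array weights also gave 1 call, Ltbp3, for the difference of the passage responses. With the replicate block the counts were 4, 3 and 1 in these 3 comparisons, and 0 at early passage and for the difference of the passage responses. Same-numbered arrays of WT early and WT late cells deviated together (r = 0.14 to 0.28), while those of the other pairs of groups did not all pass 0.1 (for example -0.053 to 0.089 for KO-labelled and WT late cells). Leaving out 1 array at a time gave 0 to 2 calls between the late groups, 1 to 3 in late against early WT cells, 0 to 1 in late against early KO-labelled cells and 0 in the others. Both normexp settings were chosen after seeing the data, since the files hold no mean signals. Normexp alone moved the median of all genes by up to 0.28, and the cause of the lost calls was not tested. Among all genes called between the late groups, 44.7% were higher in KO-labelled cells, and 56% with quantile normalization.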
